A study of Mus musculus with 4 samples.

Results

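The 10 genes described here are the core regulators and fusion genes of skeletal muscle formation: Pax3, Pax7, Myf5, Myod1, Myog, Myf6, Mef2c, Mymk, Mymx and Chrng. They were chosen by gene symbol as markers of satellite cells, myoblasts and myoblast fusion, and all 10 are among the 56691 genes of the deposited table. The comparison asks whether sarcomas show a program of immature muscle, as a muscle tumor would, or the genes of mature muscle.

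RNA-seq was performed on 4 sarcomas of W/+ mice, 2 from ATO-treated mice (ATO 1 and ATO 2) and 2 from control mice labelled PBS (PBS 1 and PBS 2), with 1 library each. ATO is arsenic trioxide. All 4 sarcomas carry the genotype p53R282W/+, a heterozygous missense mutation of p53 named in the labels by the human residue, and no sarcoma without the mutation is in the comparison. The mutation was introduced into the germ line, so every cell type of the mouse carries it, and neither the site nor the histological type of the single sarcomas is given in the labels.

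Pax3 and Pax7 are paired box factors of muscle progenitors, and Pax7 marks the satellite cells that lie beside adult fibres. Myf5 and Myod1 commit cells to the muscle lineage, Myog drives their differentiation, and Myf6 (also called MRF4) stays on in mature fibres, while Mef2c is a partner of these factors in activating muscle genes. Mymk (myomaker) and Mymx (myomerger) are membrane proteins that fuse myoblasts into fibres, and Chrng encodes the acetylcholine receptor subunit of fetal muscle, which Chrne replaces after birth. In pathology, MYOD1 and MYOG protein are used to recognise rhabdomyosarcoma, the tumor with skeletal muscle features.

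Total counts ranged from 15259695 to 18134000. A library with 0 counts of a gene was taken to allow up to 3, which is 0.165 to 0.197 CPM (the count scaled to the library total). The mitochondrial share was 14.7% in ATO 2 against 1.98% to 2.59% elsewhere. Markers of mature skeletal muscle fibres differed widely between the sarcomas and, like most members, were highest in ATO 1. The members did not follow them in proportion across the other sarcomas. The summed level of 14 fibre markers, which include Acta1, the actin of skeletal fibres, was 19793 FPKM in ATO 1, 1405 in ATO 2, 8.58 in PBS 1 and 179.4 in PBS 2, where FPKM is the count scaled to exon length and to the total count. All 14 fibre markers were higher in both ATO sarcomas than in both PBS sarcomas by normalized CPM, against 19.7% of the 17188 genes tested. Of the 14, only Tnnc2 was at 0 counts anywhere, in PBS 1, and the part of the fibre markers in the results below was not tested. In bulk tissue, fewer muscle cells and less of an RNA per muscle cell cannot be told apart.

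One sarcoma held most of the myogenic RNA. ATO 1 had counts for all 10 members, and each of them except Pax3 was highest there both by FPKM and by CPM after TMM normalization, which scales the libraries to each other. Pax3 had 9 counts in ATO 1 and 9 in PBS 2, which put ATO 1 just ahead by normalized CPM and level with PBS 2 by FPKM. ATO 1 was the highest library for 23.9% of the 17188 genes tested. PBS 1 lay at the other end, with 8 of the 10 members at 0 counts and only Mef2c over 3 counts. In ATO 2, 4 members were at 0 counts and 4 were over 3 counts, and in PBS 2, 1 member was at 0 and 6 were over 3. Leaving out Mef2c, which was read in every sarcoma, the other 9 members had 2122 counts in all in ATO 1, 65 in ATO 2, 2 in PBS 1 and 70 in PBS 2. After TMM normalization these 9 members summed to 116.6 CPM in ATO 1, 5.21 in ATO 2, 0.105 in PBS 1 and 3.53 in PBS 2, so that ATO 2 was above PBS 2 on this scale and slightly below it in raw counts. PBS 2 was above ATO 2 in 5 of the 10 members by normalized CPM and in 6 by FPKM.

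**Figure D1:**
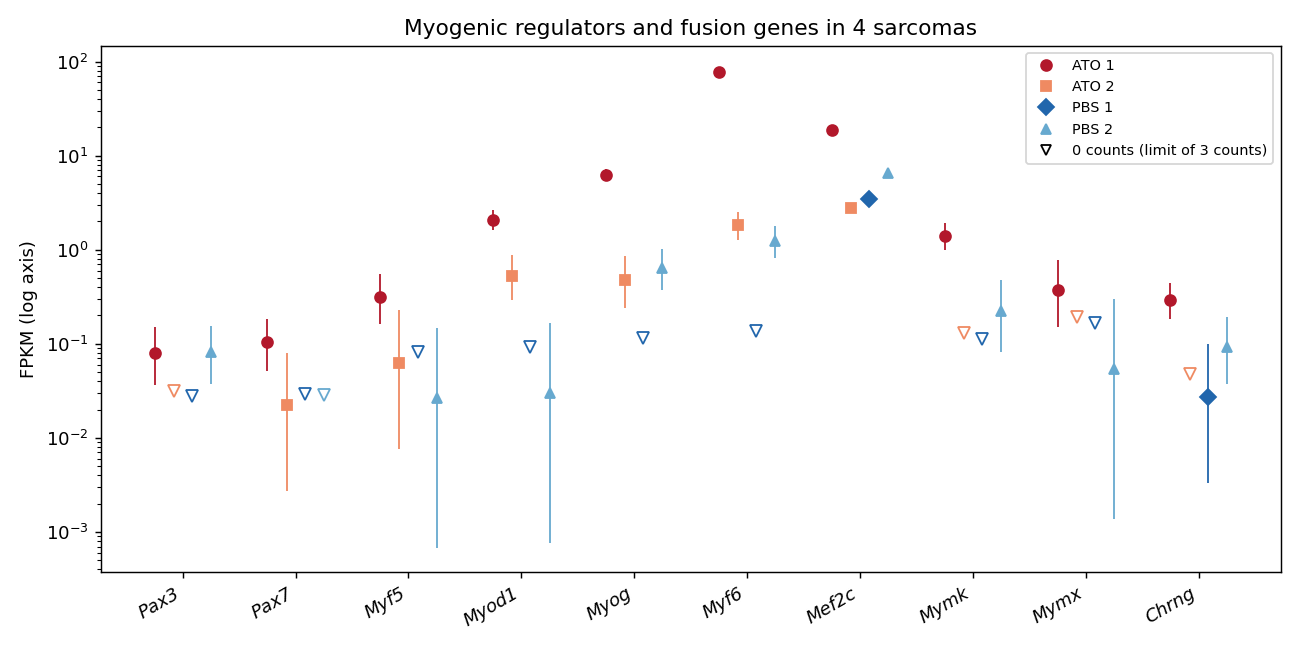
Level of the 10 members in FPKM (log axis) in each of the 4 sarcomas, with exact 95% Poisson intervals of the counts as bars and open triangles at the level of 3 counts where a library had 0 counts. ATO 1 lies at the top for each member except Pax3, where it is level with PBS 2, and PBS 1 has 8 members at 0 counts.

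Between the groups, both ATO sarcomas were above both PBS sarcomas in 5 of the 10 members by normalized CPM (Pax7, Myf5, Myod1, Myog and Myf6), against 19.7% of all genes tested. That share covers only genes with enough counts for the test. Of the 4 members among these, 3 had this order (Myod1, Myog and Myf6). The 4 members at 0 counts in ATO 2 could not have it. No member had both PBS sarcomas above both ATO sarcomas, against 20.2% of all genes tested. The 8 members at 0 counts in PBS 1 could not have this order, so its absence says little about them. By FPKM, which does not include the TMM scaling, 4 of the 10 members had both ATO sarcomas above both PBS sarcomas. Myog dropped out, being lower in ATO 2 (0.48 FPKM) than in PBS 2 (0.63 FPKM). For Pax7 and Myf5 the level of ATO 2 rested on 2 counts each, so that 3 members remained when over 3 counts in both ATO libraries were required, an alternative added after seeing the data. With 2 libraries against 2, an exact two-sided permutation test of a single gene cannot go below p = 0.333.

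Of the 10 members, 4 had enough counts to enter edgeR's quasi-likelihood test (Myod1, Myog, Myf6 and Mef2c), and 6 did not (Pax3, Pax7, Myf5, Mymk, Mymx and Chrng). Of the 4, 0 passed an adjusted p of 0.05 (Benjamini-Hochberg over 17188 genes), as did 0 of all genes tested (0%). Myod1 alone had an unadjusted p under 0.05, which 1463 genes (8.51%) of all those tested had. DESeq2 called 754 of 18277 genes, Myod1 among them. Myod1, Myog and Myf6 had few or no counts in the PBS libraries and entered the test through the sarcomas where they were high, so these counts describe the members and support no further statement about them. Within a group the sarcomas varied with a biological coefficient of variation of 62.5%.

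Pax3 (ENSMUSG00000004872, chr1:78101267-78197134, minus strand, GRCm38) was near the limit of detection in every sarcoma. Its level was 0.08 FPKM in ATO 1, 0 in ATO 2, 0 in PBS 1 and 0.08 in PBS 2, the 0 counts allowing up to 0.0318 FPKM in ATO 2 and 0.0278 in PBS 1. One sarcoma of each group thus had the same low level and the other had none. Pax3 is also used by melanocytes and Schwann cells. Of the 6 markers of these cells, Dct and Tyr were at 0 counts in every sarcoma. The summed level of the 6 was 1.38 FPKM in ATO 1, 2.76 in ATO 2, 0.95 in PBS 1 and 1.57 in PBS 2. The part of these cells in the Pax3 counts was not tested.

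Pax7 (ENSMUSG00000028736, chr4:139737062-139833528, minus strand) was read in both ATO sarcomas and in neither PBS sarcoma, at very low levels. Its level was 0.10 FPKM in ATO 1 (11 counts) and 0.02 in ATO 2 (2 counts), while the 0 counts of PBS 1 and PBS 2 allowed up to 0.0293 and 0.0285 FPKM. The level of ATO 2 was within what 0 counts allow in the PBS sarcomas, and that of ATO 1 was above it. Summed over both libraries of each group, with 3 counts in each PBS library as the limit, Pax7 was at least 2.74-fold higher in ATO, a bound that covers counting error only and rests mainly on the 11 counts of ATO 1.

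Myf5 (ENSMUSG00000000435, chr10:107482908-107486134, minus strand) and Myf6 are neighbours on chromosome 10, 6718 bases apart, and had very different levels. Myf5 was at 0.32 FPKM in ATO 1 (12 counts), 0.06 in ATO 2 (2 counts), 0 in PBS 1 and 0.03 in PBS 2 (1 count). In ATO 1, Myf6 was 245.2 times as high per length as Myf5.

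Myod1 (ENSMUSG00000009471, chr7:46376474-46379099, plus strand) was the one early member with more than a few counts in both ATO sarcomas. It had 70 counts in ATO 1, 15 in ATO 2, 0 in PBS 1 and 1 in PBS 2, which gave 2.07, 0.53, 0 and 0.03 FPKM. Both ATO sarcomas were above both PBS sarcomas, and the limit that 0 counts set for PBS 1 was 0.0923 FPKM. The mean normalized level was 2.52 ± 1.87 CPM in ATO and 0.0252 ± 0.0356 CPM in PBS (SD, n = 2 each), and the fitted log2 fold change was 6.28 (SE 1.39; edgeR's quasi-likelihood test, unadjusted p = 0.00738, adjusted p = 0.570). It did not pass the threshold. The fitted change lay between 5.19 (without ATO 1) and 8.39 (without PBS 2, which leaves PBS at 0 counts). The adjusted p was 0.0477 in edgeR without a filter on low counts and 0.0180 in DESeq2, and over all alternatives it ranged from 0.0180 to 0.872.

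Myog (ENSMUSG00000026459, chr1:134289989-134292548, plus strand), the differentiation factor, was high in ATO 1 and did not separate the other ATO sarcoma from PBS 2. Its level was 6.23 FPKM in ATO 1 (169 counts), 0.48 in ATO 2 (11 counts), 0 in PBS 1 and 0.63 in PBS 2 (17 counts). ATO 1 was 12.9 times ATO 2 and 9.85 times PBS 2, while PBS 1 allowed up to 0.115 FPKM. The spread within the ATO group (5.08 ± 5.94 CPM, against 0.428 ± 0.606 CPM in PBS, SD, n = 2 each) exceeded the difference between the means. The fitted log2 fold change was 3.55 (SE 2.01, adjusted p = 0.669 in edgeR). It was 1.02 without ATO 1 and 9.40 without PBS 2, after which PBS held 0 Myog counts and the value depends on the prior count.

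Myf6 (ENSMUSG00000035923, chr10:107492853-107494737, minus strand), the factor of mature fibres, was the most abundant member per length in ATO 1. It had 1784 counts there, 35 in ATO 2, 0 in PBS 1 and 28 in PBS 2, or 77.89, 1.82, 0 and 1.23 FPKM. ATO 1 stood 42.9-fold above ATO 2, and ATO 2 and PBS 2 were near each other. The fitted log2 fold change of Myf6 was 6.14 (SE 2.47, adjusted p = 0.592 in edgeR), from 50.4 ± 67.3 CPM in ATO and 0.705 ± 0.998 CPM in PBS (SD, n = 2 each). It was 1.97 without ATO 1 and 12.71 without PBS 2, which again leaves PBS at 0 counts. Without the filter on low counts the adjusted p was 0.0330, and over all alternatives it ranged from 0.0330 to 0.872.

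Mef2c (ENSMUSG00000005583, chr13:83504034-83667080, plus strand) was the one member expressed in all 4 sarcomas. Its level was 18.77 FPKM in ATO 1, 2.79 in ATO 2, 3.45 in PBS 1 and 6.52 in PBS 2. Both ATO 2 and PBS 1 were below PBS 2, so the groups overlapped, and ATO 2 was the lowest by FPKM and PBS 1 by normalized CPM (53.5 against 49.8). The fitted log2 fold change was 1.28 (SE 0.91, adjusted p = 0.723 in edgeR; 174 ± 170 CPM in ATO and 71.3 ± 30.4 CPM in PBS, SD, n = 2 each), and without ATO 1 it turned to -0.43. Mef2c is also expressed by B cells, endothelial cells and macrophages. The summed level of 4 endothelial markers was 76.11 FPKM in ATO 1, 152.5 in ATO 2, 106.2 in PBS 1 and 892.3 in PBS 2. That of 4 B cell markers was 6.25, 7.16, 1.13 and 11.38 FPKM, and that of 4 macrophage markers 287.4, 370.7, 330.9 and 141.1 FPKM, in the same order. None of the 3 sums was highest in ATO 1, where Mef2c was highest. The endothelial and B cell sums were highest in PBS 2, the second sarcoma by Mef2c. Single markers could differ from their sum. By normalized CPM, 2 of the 4 macrophage markers were highest in ATO 1, against 0 of the endothelial and B cell markers and 23.9% of all genes tested. The part of these cell types in the level of Mef2c was not tested.

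The 2 fusion genes and the fetal receptor subunit were read in ATO 1 and PBS 2 and not at all in ATO 2. Mymk (ENSMUSG00000009214, chr2:27061636-27072179, minus strand) had 38 counts in ATO 1, 0 in ATO 2, 0 in PBS 1 and 6 in PBS 2, or 1.39, 0, 0 and 0.22 FPKM. The 0 counts of Mymk allowed up to 0.130 FPKM in ATO 2 and 0.114 in PBS 1, both below the level in PBS 2, whose counting interval nevertheless reached below them. Mymx (ENSMUSG00000079471, chr17:45600971-45602102, minus strand) had 7 counts in ATO 1, 0 in ATO 2, 0 in PBS 1 and 1 in PBS 2, or 0.38, 0, 0 and 0.05 FPKM. At this depth Mymx could not be told apart between ATO 2, PBS 1 and PBS 2, since 0 counts allowed up to 0.191 FPKM in ATO 2 and 0.167 in PBS 1. Chrng (ENSMUSG00000026253, chr1:87204657-87212694, plus strand) had 22 counts in ATO 1, 0 in ATO 2, 2 in PBS 1 and 7 in PBS 2, or 0.29, 0, 0.03 and 0.09 FPKM. The 0 counts of Chrng in ATO 2 allowed up to 0.0472 FPKM, which covers the level of PBS 1 and not that of PBS 2. The groups overlapped for all 3 genes.

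Counts summed over each group gave a ratio of ATO to PBS for the members that were too low for edgeR, with an exact 95% interval that covers counting error only and says nothing of the spread between sarcomas. The ratio was 8.02 for Mymk (3.36 to 23.2), 8.87 for Mymx (1.14 to 399.5) and 3.10 for Chrng (1.37 to 7.64). It was 17.7 for Myf5 (2.70 to 749.7), while that of Pax3, 1.27, had an interval from 0.445 to 3.60. For Mymk and Mymx every ATO count came from ATO 1, and so did every ATO count of Chrng and Pax3.

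In order of FPKM in ATO 1, the members ran from Myf6 through Mef2c, Myog, Myod1, Mymk, Mymx, Myf5, Chrng and Pax7 to Pax3. The factor of mature fibres stood first and the progenitor factors last. The counting intervals of neighbours in this order overlapped between Myod1 and Mymk and between each pair of neighbours from Mymx to Pax3, so those steps are within counting error.

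Upstream windows of Myog and Chrng are shown because these 2 genes mark differentiating and fetal muscle and because E-boxes, the CANNTG motif that the myogenic factors Myf5, Myod1, Myog and Myf6 bind, could be located in them. RefSeq sequence (GRCm38.p6) was at hand for 5 members (Pax7, Myf5, Myog, Mef2c and Chrng). Each window is the 250 bases before the RefSeq start, 5′ to 3′, on the plus strand for both genes, with the E-boxes in capitals. The Myog window is chr1:134289754-134290003, whose last bases lie in the first exon of the GENCODE M21 annotation, and the Chrng window is chr1:87205561-87205810, which lies inside the span that M21 gives for the gene because M21 has a transcript starting further upstream.
Myog: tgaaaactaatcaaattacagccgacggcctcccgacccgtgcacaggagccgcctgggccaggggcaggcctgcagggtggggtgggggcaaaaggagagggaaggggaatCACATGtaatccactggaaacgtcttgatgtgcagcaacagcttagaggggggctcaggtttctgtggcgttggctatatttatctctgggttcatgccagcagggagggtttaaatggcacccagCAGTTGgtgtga
Chrng: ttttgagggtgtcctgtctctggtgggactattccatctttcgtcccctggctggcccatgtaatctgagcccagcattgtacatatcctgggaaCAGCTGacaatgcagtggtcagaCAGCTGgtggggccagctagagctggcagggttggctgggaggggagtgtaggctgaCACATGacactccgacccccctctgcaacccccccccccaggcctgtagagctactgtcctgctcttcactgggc
The motif CANNTG reads the same on both strands, so 1 search covers both. Myog had 2 E-boxes, at -138 (CACATG) and -12 (CAGTTG) from the start, and Chrng had 3, at -155 and -132 (both CAGCTG) and at -75 (CACATG). Of the 3 Mef2c starts, the first had 2, the second none and the third 1, and the Pax7 and Myf5 windows had none. Over 32851 RefSeq windows of the same length, 66.2% held at least 1 E-box, 31.7% at least 2 and 12.0% at least 3, so the number in Myog is common. The form CAGCTG, found at 2 places in Chrng, occurred in 13.0% of windows at 1 or more places and in 1.26% at 2 or more. Other receptor subunits also held the motif. Chrne, the adult subunit, had 1 E-box (CAGCTG at -138), Chrna1 had 3, of which 2 were CAGCTG as in Chrng, and Chrnb1 had 3, none of them CAGCTG. These matches are letters in a window and were not tested for binding.

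The members were next set against the fibre markers of the same sarcoma, as FPKM of the member per 1000 FPKM summed over the 14 fibre markers. Relative to fibre RNA, the order of the sarcomas changed. Among ATO 1, ATO 2 and PBS 2, it was PBS 2, with less fibre RNA than the ATO sarcomas, that held the most Pax3, Myog, Myf6, Mymk and Chrng per fibre marker. Myog was at 0.315 in ATO 1 (exact 95% Poisson interval 0.269 to 0.366), 0.343 in ATO 2 (0.171 to 0.614) and 3.53 in PBS 2 (2.05 to 5.65). The ATO sarcomas were alike within counting error and PBS 2 was above both. All intervals here take the fibre sum as fixed and cover counting error of the member only.

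Mymk was at 0.0701 per 1000 in ATO 1 (0.0496 to 0.0962) and at 1.23 in PBS 2 (0.452 to 2.68), while the 0 counts of ATO 2 allowed up to 0.0926. Chrng was at 0.0147 in ATO 1 (0.00923 to 0.0223) and 0.521 in PBS 2 (0.210 to 1.07), with up to 0.0336 allowed in ATO 2. Pax3 was at 0.00405 in ATO 1 (0.00185 to 0.00769) and 0.451 in PBS 2 (0.206 to 0.856), with up to 0.0226 allowed in ATO 2. For these 3 genes the interval of PBS 2 was above that of ATO 1 and above the limit of ATO 2. Pax3 had 9 counts in both ATO 1 and PBS 2, so its gap lies in the fibre sums, 19793 and 179.4 FPKM. RNA unrelated to fibres, at an equal level, would also give a higher ratio where the fibre sum is lower. Myf6 was at 3.94 in ATO 1 (3.75 to 4.12), 1.29 in ATO 2 (0.900 to 1.80) and 6.87 in PBS 2 (4.57 to 9.94), all 3 apart beyond counting error. Myod1 had another order, with 0.105 in ATO 1 (0.0817 to 0.132), 0.376 in ATO 2 (0.210 to 0.620) and 0.167 in PBS 2 (0.00422 to 0.928, from 1 count). ATO 2 was above ATO 1 for Myod1 beyond counting error, and PBS 2 could not be placed.

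Pax7, Myf5 and Mymx had too few counts to place ATO 2 and PBS 2. In ATO 1 they stood at 0.00523, 0.0161 and 0.0190 per 1000. PBS 1 could not be placed for the 8 members at 0 counts there, since its fibre markers summed to 8.58 FPKM and the limits were wide. Its 2 Chrng counts gave 3.21 per 1000 (0.388 to 11.6), an interval that overlapped that of PBS 2. For Mef2c the ratio was 0.948 in ATO 1, 1.98 in ATO 2, 402.3 in PBS 1 and 36.3 in PBS 2, so its level was not in proportion to fibre RNA across the sarcomas.

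**Figure D2:**
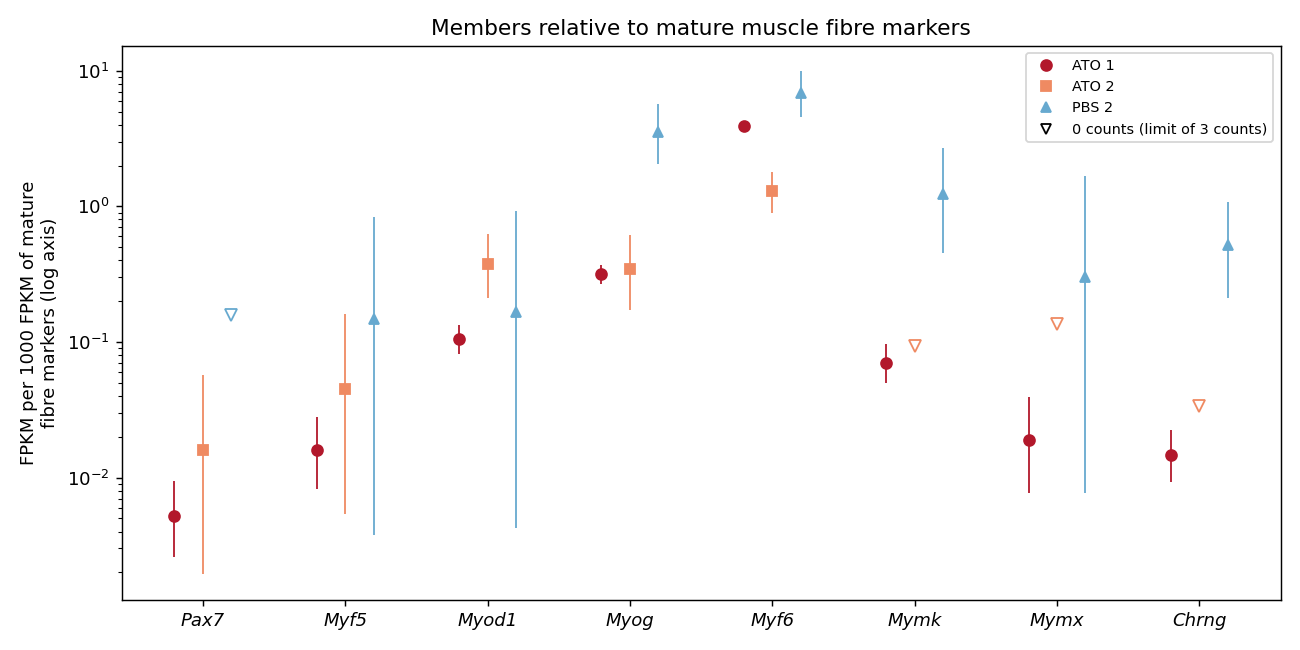
FPKM of 8 members per 1000 FPKM of summed mature fibre markers (log axis) in ATO 1, ATO 2 and PBS 2, with exact 95% Poisson intervals of the member's counts as bars and open triangles at the level of 3 counts where a library had 0. PBS 1 is not drawn because its fibre markers summed to 8.58 FPKM. Myog, Mymk and Chrng lie higher in PBS 2 than in ATO 1, at 3.53 against 0.315 for Myog.

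Chrng was also read against the adult subunit that takes its place, and the sarcomeric genes of developing muscle against those of adult fibres. Chrne, chosen after its values were seen, was at 1.01 FPKM in ATO 1 (31 counts), 0 in ATO 2, 0 in PBS 1 and 0.07 in PBS 2 (2 counts). Per length, Chrng made up 22.4% of the sum of both subunits in ATO 1 and 58.7% in PBS 2, the latter from 7 Chrng and 2 Chrne counts. ATO 2 had 0 counts of either subunit, and PBS 1 had 2 of Chrng and 0 of Chrne, so no share can be given there.

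Embryonic and perinatal myosin heavy chain, Myh3 and Myh8, were a small part of the RNA of 5 heavy chain genes in ATO 1, ATO 2 and PBS 2. The 35 counts of PBS 1 were too few to place it. Per length they made up 0.240% of the sum of Myh3, Myh8 and the adult chains Myh1, Myh2 and Myh4 in ATO 1 (1466 developmental counts), 0.125% in ATO 2 (24 counts), 0% in PBS 1 (0 of 35 counts) and 2.39% in PBS 2 (89 counts). Myh3 alone was at 3.95 FPKM in ATO 1, 0.09 in ATO 2, 0 in PBS 1 and 0.54 in PBS 2. The sarcoma with the larger share of fetal receptor subunit, PBS 2, was also the one with the largest share of developmental heavy chain, which describes 1 library. Actc1, the cardiac actin of fetal muscle, made up 0.357% of the sum of Actc1 and Acta1 in ATO 1, 0.189% in ATO 2 and 2.10% in PBS 2. In PBS 1 its share was 28.9%, from 9 Actc1 and 21 Acta1 counts. Cardiac markers were low in all 4 sarcomas, with a sum of 4 genes between 1.15 and 2.25 FPKM. The heavy chain genes are close relatives, and how the counting split reads shared between them is not given.

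**Figure D3:**
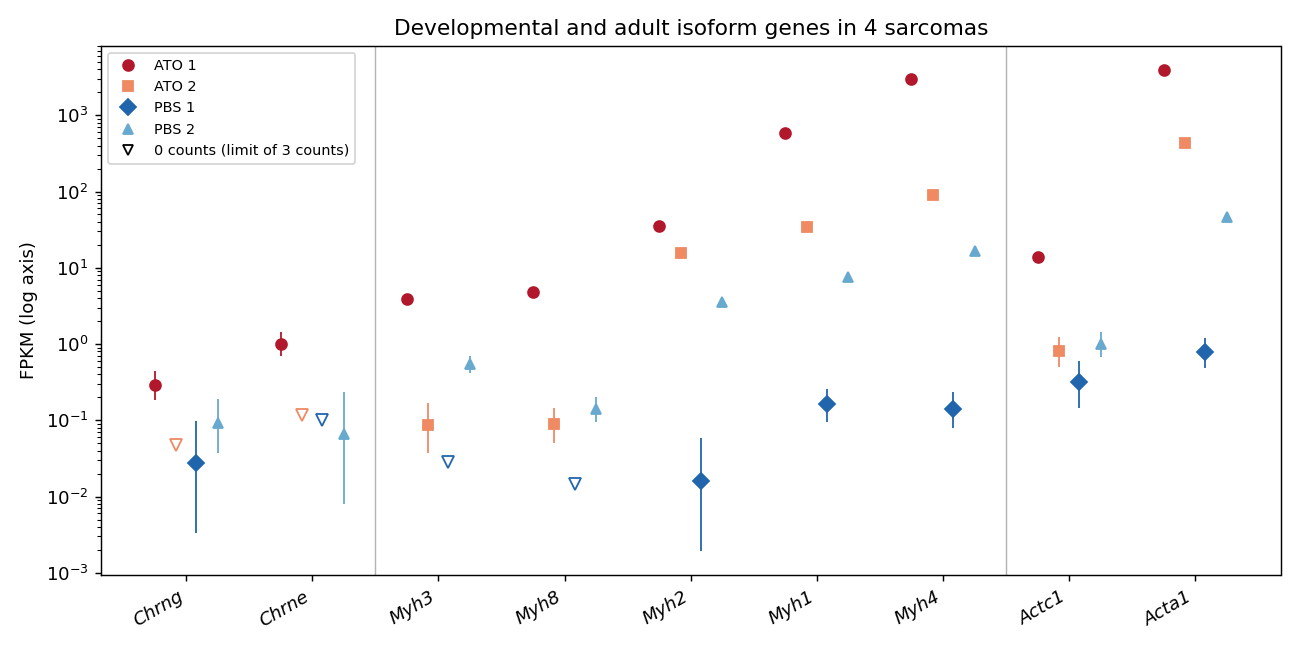
Level in FPKM (log axis) of fetal and adult acetylcholine receptor subunits (left), developmental (Myh3, Myh8) and adult (Myh2, Myh1, Myh4) myosin heavy chains (middle) and fetal and adult sarcomeric actins (right) in each sarcoma, with exact 95% Poisson intervals as bars and open triangles at the level of 3 counts where a library had 0. In ATO 1 the adult chains Myh1 and Myh4 stand far above Myh3 and Myh8, which together made up 0.240% of the 5 heavy chains drawn.

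Of 69 further genes of muscle formation in 7 lists, 67 were tested, and 0 passed an adjusted p of 0.05 in edgeR. An unadjusted p under 0.05 was found for 8 genes higher in ATO and 1 lower (13.4% of those tested, against 8.51% of all genes). Both ATO sarcomas were above both PBS sarcomas in 16 (23.9%, against 19.7% of all genes), and below in 11 (16.4%, against 20.2%). ATO 1 was the highest sarcoma for 36 of the 69, against 23.9% of all genes tested.

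The lists of regulators upstream of and beside the members had medians of either sign, and no gene in them passed the adjusted threshold. Of 6 MEF2 and E protein genes, which pair with the myogenic factors, the median log2 fold change was -0.42, and the 3 most abundant were not higher in ATO throughout: Mef2d was at 40.68, 22.85, 32.44 and 19.14 FPKM in ATO 1, ATO 2, PBS 1 and PBS 2, Mef2a at 20.05, 7.51, 10.57 and 21.69. Tcf3, an E protein, was at 15.18 and 10.95 FPKM in ATO 1 and ATO 2 and at 32.87 and 22.98 in PBS 1 and PBS 2, both ATO sarcomas below both PBS sarcomas. Of 10 inhibitors of the myogenic factors or of muscle growth the median was 0.23, and Id3, Id1 and Id2, which block the pairing of these factors with E proteins, had fitted changes of 0.60, -0.07 and 0.55. Of 12 upstream factors of the muscle lineage the median was 0.78 and the fitted change was positive for 9. Of these 12, 4 (Pitx3, Lbx1 and Eya2 among them, chosen after their values were seen) had an unadjusted p under 0.05 in edgeR, all higher. Of all genes tested, 8.51% had one, in either direction. Both ATO sarcomas were above both PBS sarcomas in 4 of these 12 (19.7% of all genes) and below in 1 (20.2% of all genes). ATO 1 was the highest for 7 (23.9% of all genes). Among the most abundant were Meox2 (3.15, 9.22, 42.43 and 9.10 FPKM in the same order) and Meox1 (1.21, 16.06, 7.58 and 8.79 FPKM), and neither separated the groups with ATO above PBS.

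Some single genes of these lists, chosen after their values were seen, had the pattern of Myod1, with counts in both ATO sarcomas and few in PBS. Pitx3, a factor of muscle progenitors and fibres, was at 4.26 FPKM in ATO 1, 0.86 in ATO 2, 0 in PBS 1 and 0.04 in PBS 2. Mstn, which encodes the growth inhibitor myostatin secreted by muscle fibres, was at 21.69 and 0.29 FPKM in ATO 1 and ATO 2 and had 0 counts in both PBS sarcomas. Lbx1, a factor of migrating muscle progenitors, was at 5.28, 0.26, 0 and 0.07 FPKM. Like the members, all 3 were highest in ATO 1, and the adjusted p of each was 0.570 in edgeR.

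Of 12 genes of the satellite cell surface and of quiescence, the median log2 fold change was 0.92. Des, the intermediate filament of muscle cells, is in this list but is not confined to satellite cells. It was at 485.7, 36.78, 3.60 and 23.76 FPKM in ATO 1, ATO 2, PBS 1 and PBS 2 and differed between the groups without overlap (log2 fold change 4.41, SE 1.61, adjusted p = 0.577 in edgeR). The sarcomas had the same order by Des as by the fibre marker sum, and the part of fibres in its level was not tested. Cxcr4 and Sdc4, which cells other than satellite cells also express, were at 19.66 FPKM or more in every sarcoma. Sdc4, at 54.04, 48.58, 38.08 and 19.66 FPKM in the same order, did not overlap between the groups (log2 fold change 1.10, adjusted p = 0.602 in edgeR). Cxcr4, at 25.86, 59.99, 28.25 and 59.77 FPKM, did overlap. Cdh15 (M-cadherin), a satellite cell and myoblast marker chosen after its values were seen, was at 10.75, 0.32, 0.12 and 0.14 FPKM. Other genes of this list, also chosen after their values were seen, had another order. Calcr was at 4.19, 0, 0.63 and 1.14 FPKM, lowest in ATO 2, and Heyl at 2.02, 2.33, 1.81 and 13.89 FPKM, highest in PBS 2. Both ATO sarcomas were above both PBS sarcomas in 5 of the 12 (19.7% of all genes) and below in 0 (20.2% of all genes).

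Of 13 other adhesion and fusion genes, the median log2 fold change was -0.45, and none had both ATO sarcomas above both PBS sarcomas (19.7% of all genes had), while 6 had the opposite (20.2% of all genes). The most abundant, Cd9, Cd81 and Kirrel, had fitted changes of -0.13, 0.14 and -0.45. ATO 1 was the highest sarcoma for 1 of these 13 (23.9% of all genes), whereas it was the highest for both Mymk and Mymx.

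Of 10 acetylcholine receptor and neuromuscular junction genes, 8 were tested and the median log2 fold change was 2.08. ATO 1 was the highest sarcoma for all 10 by normalized CPM (23.9% of all genes), as it was for Chrng. Chrna1, the receptor subunit that pairs with Chrng, was at 8.08 FPKM in ATO 1, 0.24 in ATO 2, 1.98 in PBS 1 and 0.85 in PBS 2. ATO 2 was the lowest for Chrna1. Chrnb1 was at 11.98, 2.23, 5.61 and 11.56 FPKM and Lrp4 at 14.01, 0.54, 2.66 and 1.10 FPKM, again with ATO 2 lowest. Musk, the receptor kinase of the junction, chosen after its values were seen, was at 3.34, 0.23, 0.14 and 0.06 FPKM.

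Of 6 developmental sarcomere genes, all had a positive fitted change, with a median of 2.42 against 6.89 for the 14 mature fibre genes and -0.02 for all genes tested. Both ATO sarcomas were above both PBS sarcomas in 1 of the 6 and in all 14 mature fibre genes, against 19.7% of all genes tested. Actc1 was at 13.97, 0.81, 0.32 and 1.00 FPKM, Tnni1 at 1.98, 5.24, 0.21 and 3.83 and Myl4 at 4.23, 0.41, 0.54 and 1.16 in ATO 1, ATO 2, PBS 1 and PBS 2. By normalized CPM, 5 of the 6 were highest in ATO 1 (23.9% of all genes tested), and Tnni1 was highest in ATO 2. The list was not restricted to genes absent from adult fibres. The mature genes Acta1, Atp2a1 and Tnnt3 had fitted changes of 6.68, 6.88 and 7.11 (adjusted p from 0.570 to 0.597 in edgeR). The markers of another tissue also moved with the groups, since 5 adipocyte markers summed to 228.7 and 1369 FPKM in ATO 1 and ATO 2 and to 12.74 and 66.22 FPKM in PBS 1 and PBS 2. Unlike the members, these were higher in ATO 2 than in ATO 1. The labels of all 4 libraries carry a culture protocol with agents used to induce adipocytes, although they name tumor tissue, and whether it was applied cannot be told from the sources used here.

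**Figure D4:**
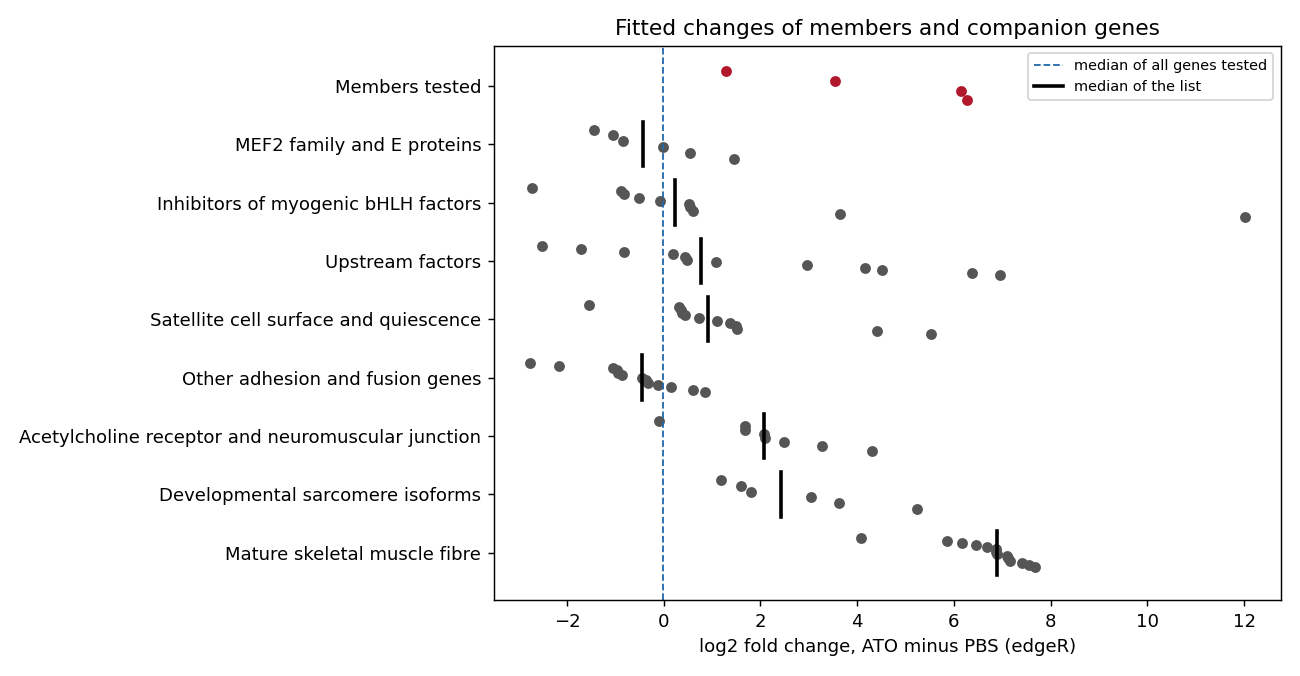
Fitted log2 fold change (ATO minus PBS, edgeR) of the 4 members tested (red), the 67 companion genes tested in 7 lists and 14 mature fibre genes (grey), with black bars at the list medians and a dashed line at the median of all genes tested (-0.02). The fibre genes lie highest, with a median of 6.89, the developmental sarcomere genes have a median of 2.42, and the far right point is Mstn, whose PBS counts were 0, so its value depends on the prior count.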

How the data were processed

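Each library is 1 sarcoma, grouped by the treatment in its label. The authors trimmed reads, aligned them with HISAT2, used HTSeq for counting, and deposited raw read counts per gene. The authors also deposited FPKM, which equalled count per exon length and total count to within 0.006 for all 56691 genes. FastQC 0.10.1, cutadapt 1.9.1 and HISAT2 2.0.1 are named in the submitters' processing notes. Whether counting used strand is not given in the sources used here. No annotated gene overlaps a member. The methods name GRCm38, but only 1435 of 52073 shared genes had the same position in GENCODE M21, so positions were taken from M21 by gene identifier. The labels also give a culture protocol of the kind used to induce adipocytes and extraction and library kits that differ from those in the study's methods.

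Differences between groups came from edgeR 4.0.16 under R 4.3.3 (quasi-likelihood F-test with filterByExpr, TMM and trended dispersion, Benjamini-Hochberg over 17188 genes, threshold 0.05), with DESeq2 1.42.0 as an alternative. Summaries and figures were made in Python 3.11.15 with pandas 2.3.3, scipy 1.17.1 and matplotlib 3.10.9. Intervals were exact Poisson (levels) or Clopper-Pearson (ratios of summed counts) at 95%, and 3 counts were the limit for a count of 0. Both cover counting error only. Libraries totalled 15259695 to 18134000 counts.

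All 10 members are named, and of each list the 3 genes with the highest mean FPKM, of which 1 is not reported here. Members and lists were chosen with earlier results of these data known. Alternatives were DESeq2, its size factors, no filter, no mitochondrial genes, a replicate block, FPKM or plain CPM, and each library left out. Other columns of the table held 0 further samples.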

Additional observations from a re-analysis of the deposited data

How the results depend on the processing

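With no filter on low counts in edgeR, 541 of 30859 genes passed an adjusted p of 0.05, 2 members (Myod1 and Myf6) among them. With DESeq2, 754 of 18277 genes passed, 1 member (Myod1) among them. In edgeR with the filter, 0 genes and 0 members passed. The cause was not tested. Requiring over 3 counts in both ATO libraries, an alternative added after seeing the data, left 3 of the 5 members with both ATO libraries above both PBS libraries. With 1 library left out, its group rests on 1 library that is assumed to vary like the other group; 0 genes and 0 members passed in each such fit, and the log2 fold change of Mef2c ranged from -0.43 (without ATO 1) to 2.05 (without ATO 2). Of 36 alternative fits of single members, 32 kept their direction and side of the threshold, 3 passed it and 1 reversed. The labels do not say that replicate numbers pair the libraries, and deviations of same-numbered libraries had a correlation of -0.024 over 17188 genes. With a replicate block 0 genes and 0 members passed, 1165 genes had an unadjusted p under 0.05, and the log2 fold change of Mef2c was 0.88. Depth limits Pax3, Pax7, Myf5 and Mymx, which had at most 12 counts in any library.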
